A study of Homo sapiens with 9 samples.

Results

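The 676 transcripts described here were chosen by their mean methylation level over 9 arrays, which was 0.30 or less, and were therefore found mostly in the RNA fraction that an antibody against N6-methyladenosine (m6A) did not bind. They are called low-level transcripts below. They were selected on the levels deposited by the authors, from 18598 probes with the prefix ASHG19AP1 that had a deposited level and whose IP and Sup spots were both marked well above background by the scanner software on each of the 9 arrays. The array holds 50802 probes with this prefix among 60541 RNA probes. The RNA came from PC9, a long-established line of human lung adenocarcinoma cells, collected 96 h after transfection with siALKBH5#1, siALKBH5#3 or siControl at 15 nM. Each group had 3 biological replicates with 1 array each, and both siRNAs target ALKBH5. Total RNA was left unfragmented and split into a bound (IP, Cy5) and an unbound (Sup, Cy3) fraction, and the methylation level of a transcript is IP/(IP + Sup).

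m6A is an adenosine that carries a methyl group on its N6 atom. The METTL3 and METTL14 proteins write it, proteins with a YTH domain read it, and the demethylases ALKBH5 and FTO erase it. Because whole molecules were precipitated, the level reflects how much of a transcript's RNA was pulled down, and 1 modified site can carry a whole molecule into the bound fraction. The comparisons address whether the level and the abundance of these transcripts differ when ALKBH5 is silenced. The mean that chose them includes the siRNA arrays, so a transcript can lie above 0.30 in the siControl group.

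The files do not pair the ASHG19AP1 probes with genes, so 0 of the 676 low-level transcripts have a gene name here, and the knockdown of ALKBH5 itself was not analysed. The files do not say which of these probes detect coding RNA either, and the transcripts are described by probe prefix. Of the 1984 passing ASHG19AP1A probes, 71 (3.58%) were low-level, and of the 16614 passing ASHG19AP1B probes, 605 (3.64%) were. Under the same limit, low levels were found for 3.88% of the passing ASHGV probes and 4.80% of the passing ASHG38SM probes. Among 44 passing probes of named genes, 1 lay under the limit. This was ITGB3BP, a centromere protein also known as CENP-R, with a mean level of 0.219, and the next lowest named gene was PRIM1, a primase subunit, at 0.395.

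The array of siALKBH5#1 replicate 3 stood apart from the others for these transcripts. The median deposited level of the low-level transcripts was 0.390 on this array. It was 0.225 and 0.204 on the other siALKBH5#1 arrays, 0.216, 0.249 and 0.295 on the siControl arrays, and 0.285, 0.237 and 0.208 on the siALKBH5#3 arrays. Only 149 of the 676 transcripts (22.0%) lay at or under 0.30 on siALKBH5#1 replicate 3, against 352 (52.1%) on siControl replicate 3, 418 (61.8%) on siALKBH5#3 replicate 1 and at least 588 (87.0%) on the remaining arrays. The shift ran in the opposite direction at the other end of the range. For 2391 transcripts with a mean level of 0.70 or more, the median was 0.667 on siALKBH5#1 replicate 3 and between 0.721 and 0.842 on the other arrays. The gap between both sets was 0.277 on this array, 0.425 on siControl replicate 3 and 0.513 to 0.626 elsewhere, so these sets were closest together on these arrays. Both sets were chosen by the mean of these same levels, so an array that departs from the others tends to show them closer. The gap is therefore only a description. The scanner software marked an uneven background for 25.4% of the low-level transcripts on siALKBH5#1 replicate 3, against 7.69% on siControl replicate 3 and 1.48% or less on the others. For the other passing transcripts these shares were 24.1%, 6.86% and at most 1.42%. Its part in the shift was not tested. The array of siALKBH5#1 replicate 1 was scanned apart from the other 8. The counts of changed transcripts are given below with and without siALKBH5#1 replicate 3. The scan of siALKBH5#1 replicate 1 holds only that array, so that the values within the other scan are those without siALKBH5#1 replicate 1.

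**Figure D1:**
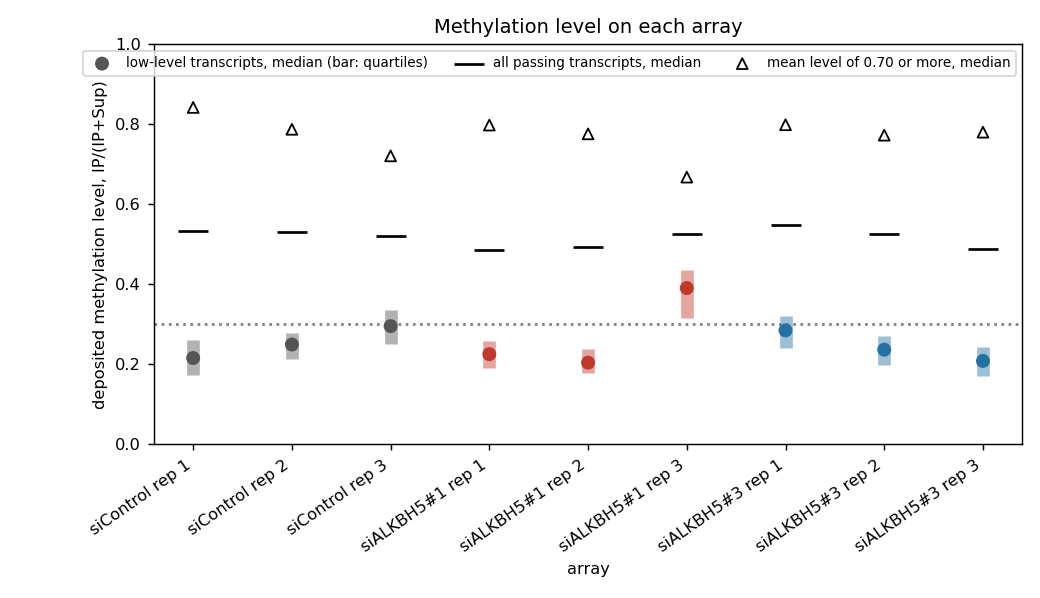
Deposited methylation level of the low-level transcripts on each array (points, median; bars, lower to upper quartile), with the median of all 18598 passing transcripts (dashes) and of the 2391 transcripts with a mean level of 0.70 or more (triangles). The dotted line is the limit of 0.30. On siALKBH5#1 replicate 3 the low-level transcripts lie at 0.390 and the high-level transcripts at 0.667, closer together than on any other array.

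The mean level of a low-level transcript was 0.0730 at the lowest and 0.299986 at the highest, with a median of 0.263 and quartiles of 0.231 and 0.284. These values chose the transcripts and are given without a test. Most lay close to the limit. The level was above 0.25 for 416 transcripts, between 0.20 and 0.25 for 190, between 0.15 and 0.20 for 56, and 0.15 or less for 14. The 3 transcripts just inside the limit had mean levels of 0.299936, 0.299957 and 0.299986, and the 3 just outside had 0.300025, 0.300108 and 0.300203, while the single arrays of these 6 spanned 0.205 to 0.498. A limit of 0.29 would have taken 562 transcripts and a limit of 0.31 would have taken 796. Leaving siALKBH5#1 replicate 3 out of the mean put 847 transcripts under the limit, 671 of the 676 among them, so this array held further transcripts above it. Only 76 transcripts were at or under 0.30 on all 9 arrays, and 215 were on all 8 others.

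With the signals scaled to spike-in RNA instead of the dye normalization contained in the deposited levels, the median level was 25.9%, with quartiles of 22.8% and 28.8%. It was 52.4% for all 18598 passing transcripts. On single arrays it was 22.4%, 23.7% and 25.8% with siControl, 28.1%, 23.8% and 29.4% with siALKBH5#1, and 26.3%, 24.1% and 23.8% with siALKBH5#3. The highest array was again siALKBH5#1 replicate 3, and the groups overlapped. Between arrays of the same replicate number, the scaled siALKBH5#1 median was above that of siControl each time, by little for replicate 2 (23.8% against 23.7%). The deposited median was higher for replicates 1 and 3, but lower for replicate 2 (0.204 against 0.249). For all passing transcripts the scaled median was higher with siALKBH5#1 for replicates 1 and 2 (54.8% against 51.8% for replicate 2). It was lower for replicate 3 (44.3% against 49.0%). The mean of the array medians was 24.0% ± 1.73 (SD, n = 3) in the siControl group, 27.1% ± 2.92 (SD, n = 3) in the siALKBH5#1 group, and 24.7% ± 1.35 (SD, n = 3) in the siALKBH5#3 group. The siALKBH5#1 mean was 26.0% ± 3.02 (SD, n = 2) when replicate 3 was left out. A mean scaled level of 30% or less was found for 693 transcripts, 555 of them among the 676.

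The low-level transcripts were brighter than the other passing transcripts in the unbound fraction and somewhat dimmer in the bound fraction. Their median background-subtracted intensity, taken as a geometric mean over the arrays, was 717 in Sup and 116 in IP. For the other passing transcripts it was 244 in Sup and 136 in IP, and for the transcripts at 0.70 or more it was 79.1 in Sup and 130 in IP. The filter and the rule both act here, since a transcript had to be well above background in IP and still be far brighter in Sup, and these values are therefore a description. Of the 676, 1 lay in the lowest quartile of Sup signal among the passing transcripts, 109 in the second, 319 in the third and 247 in the highest. By IP signal, 171, 193 and 205 lay in the lower 3 quartiles and 107 in the highest. The Sup signal ranged from 90.4 to 32278 and the IP signal from 17.0 to 15384.

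**Figure D2:**
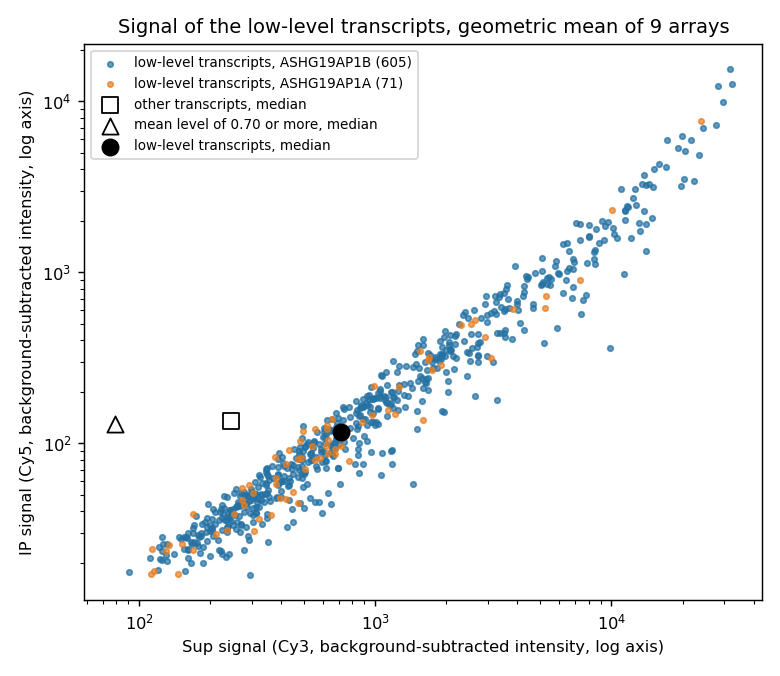
IP signal against Sup signal of each low-level transcript, as the geometric mean of the background-subtracted intensity over 9 arrays, on log axes, coloured by probe prefix. The larger symbols are the medians of the low-level transcripts (Sup 717, IP 116), of the other passing transcripts (Sup 244, IP 136) and of those with a mean level of 0.70 or more (Sup 79.1, IP 130). The sets differ in Sup signal more than in IP signal.

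The order of the transcripts by signal was stable between arrays, and their order by level was not. The mean Spearman correlation of an array with the other 8 across the low-level transcripts was between 0.937 and 0.970 for the Sup signal and between 0.864 and 0.944 for the IP signal. For log2(IP/Sup) it was between 0.230 and 0.557, where the full set of passing transcripts gave 0.537 to 0.853. The low-level transcripts span a narrower range of level than the full set, and the part of this range in the lower values was not tested. The SD of the log2 level within groups had a median of 0.30 for the low-level transcripts, against 0.22 for the other passing transcripts. Without siALKBH5#1 replicate 3 these were 0.25 and 0.14. For the scaled level in percent the order was the opposite, with median SDs of 5.10 and 7.76 percentage points, while for the deposited levels in percent the low-level transcripts had the larger SD, with 7.27 against 5.32. The log2 Sup signal varied more for the low-level transcripts (median SD 0.76 against 0.61) and the log2 IP signal less (0.74 against 0.93). Without siALKBH5#1 replicate 3 these were 0.39 against 0.32 for Sup and 0.46 against 0.51 for IP. Within siALKBH5#3 alone the order for IP was the opposite, with 0.36 for the low-level transcripts and 0.30 for the others.

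The level of bright transcripts moved most between arrays. In the brightest quartile of the low-level transcripts by Sup signal (169 transcripts, median Sup 5558), the median deposited level was 0.189, 0.238 and 0.323 on the siControl arrays, 0.222, 0.197 and 0.427 on the siALKBH5#1 arrays, and 0.285, 0.212 and 0.192 on the siALKBH5#3 arrays. In the dimmest quartile (169 transcripts, median Sup 235) it was 0.239, 0.260 and 0.283 with siControl, 0.234, 0.222 and 0.338 with siALKBH5#1, and 0.286, 0.257 and 0.224 with siALKBH5#3. Bright transcripts thus had higher levels than dim ones on siControl replicate 3 and siALKBH5#1 replicate 3, about the same level on siALKBH5#3 replicate 1, and lower levels on the remaining 6 arrays. With the spike-in scaled level they were also higher on siControl replicate 2 (24.99% against 22.9%), siALKBH5#3 replicate 1 (28.9% against 25.4%) and siALKBH5#3 replicate 2 (25.1% against 24.0%). The median IP intensity of the brightest quartile was 10461 on siALKBH5#1 replicate 3 and 3527 on siControl replicate 3, against 301 to 1067 on the other arrays. The within-group SD of the log2 level was 0.45 in the brightest quartile and between 0.25 and 0.29 in the others.

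**Figure D3:**
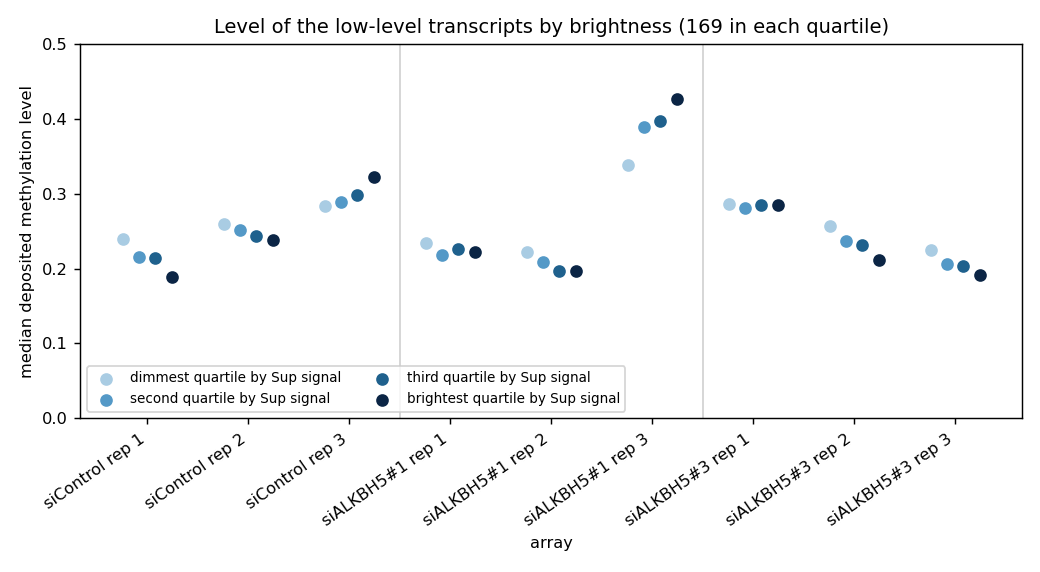
Median deposited methylation level of the low-level transcripts on each array, in quartiles of their mean Sup signal (169 transcripts each, light to dark from dim to bright). The brightest quartile lies highest on siControl replicate 3 (0.323) and siALKBH5#1 replicate 3 (0.427) and lowest on siControl replicate 1 (0.189).

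Single transcripts showed the same range of behavior. The transcript with the lowest mean level, at 0.0730, had deposited levels of 0.0881, 0.0559 and 0.0512 with siControl, 0.0801, 0.0863 and 0.121 with siALKBH5#1, and 0.0648, 0.0533 and 0.0564 with siALKBH5#3. Its Sup intensities ran from 6183 to 15515. The transcript with the brightest Sup signal had levels of 0.169, 0.337 and 0.357 with siControl, 0.196, 0.184 and 0.415 with siALKBH5#1, and 0.379, 0.322 and 0.267 with siALKBH5#3. It lay over 0.30 on 5 of the 9 arrays. Its spike-in scaled level had a mean of 45.6%, over the limit of 30%. This level was 22.5%, 52.0% and 64.4% on the siControl arrays, 27.7%, 29.2% and 63.3% on those of siALKBH5#1, and 58.7%, 54.7% and 37.8% on those of siALKBH5#3. Its IP intensity ran from 2058 on siControl replicate 1 to 62303 on siALKBH5#1 replicate 3. The transcript with the largest spread among those measured on every array went from 0.0651 on siControl replicate 1 to 0.421 on siALKBH5#1 replicate 3, with a within-group SD of 0.85 on the log2 scale of the scaled level. The transcript with the smallest spread of these had an SD of 0.064 on that scale, and its scaled levels were 28.8%, 28.4% and 28.9% with siControl, 39.7%, 36.8% and 36.6% with siALKBH5#1, and 34.5%, 31.1% and 31.0% with siALKBH5#3. The dimmest transcript in Sup had a mean intensity of 90.4 there and 17.7 in IP.

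With siALKBH5#1, 13 low-level transcripts rose in level and 1 fell, at a fold change over 1.5 with an unadjusted limma P under 0.01 for the scaled log2 level. These are 1.93% and 0.149% of the 672 low-level transcripts tested, and 4 had too few values. Of all 19781 RNAs tested, 0.248% rose and 0.0202% fell. The level cannot exceed 1, so the same change in IP/Sup moves the log2 level less where the level is higher. The shares of the low-level transcripts and of all RNAs are therefore not like for like. By limma no low-level transcript reached an adjusted P under 0.05, nor did any of all RNAs (0%), and the smallest adjusted P was 0.968. At an unadjusted P under 0.05 limma counted 85 (12.6%) of the low-level transcripts and 5.06% of all RNAs, while the methods' t-test counted 41 (6.10%) against 5.56% of all RNAs, and again none after adjustment. The log2 changes of the 13 that rose lay between 0.60 and 1.35, and 12 of the 13 were higher on every siALKBH5#1 array than on every siControl array. Their median scaled level was 14.8% with siControl and 27.6% with siALKBH5#1. The median log2 change of these 13 was 0.56 in IP and -0.49 in Sup, so a lower Sup signal is part of the rise in level. The 13 were chosen by the change between these arrays, so these values only describe them. Of the 13, 10 came from the dimmest quartile by Sup signal, 3 from the second and none from the brighter 2 quartiles. How often dim probes passed among all RNAs was not analysed. The count of 14 became 4 without background subtraction (0.595%, against 0.0708% of all RNAs), 3 with normexp (0.446% against 0.091%), 3 by the methods' t-test (0.446% against 0.0758%) and 1 without scaling (0.149% against 0.0202%). It was 7 for log2(IP/Sup) (1.04% against 0.455%), and 9 in a fit over all RNAs with Sup above background (1.34% against 1.03%). The labels do not state that the replicate numbers pair these arrays. With the number as a block and only siALKBH5#1 and siControl in the model, an alternative chosen after seeing the data, 27 transcripts rose and 8 fell (5.21% together, against 0.602% of all RNAs), and 5 low-level transcripts reached a limma adjusted P under 0.05, out of 5 among all RNAs. In the other fits of this comparison that kept every siALKBH5#1 and siControl array, only array weights gave low-level transcripts under it. These were 162 (24.1%), beside 5539 (28.0016%) of all RNAs, so the low-level share was the smaller.

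The median log2 change in level with siALKBH5#1 was 0.16 for the low-level transcripts, with quartiles of -0.036 and 0.32, and -0.0044 for all RNAs. The difference between these medians, 0.17, moved with single arrays. It was -0.022 without siALKBH5#1 replicate 3 and 0.061 without siControl replicate 1, and it was 0.28 without siControl replicate 3 and 0.29 without siALKBH5#1 replicate 2. Set against the mean of siControl, the median of the low-level transcripts minus that of all RNAs was 0.55 on siALKBH5#1 replicate 3, 0.056 on replicate 1 and -0.10 on replicate 2, while the siControl arrays gave -0.19, -0.040 and 0.23. Without siALKBH5#1 replicate 3 the medians were 0.11 for the low-level transcripts and 0.13 for all RNAs. The count then rose to 37 higher and 4 lower, that is 5.51% and 0.595%, against 2.97% and 0.652% of all RNAs, and an adjusted P under 0.05 was reached by 44 low-level transcripts (6.55%) and 7.16% of all RNAs. The 13 transcripts that had risen all passed again. Without siControl replicate 3 the count was 29 higher and 1 lower, together 4.46% against 0.45% of all RNAs. The direction also moved with the scaling. With each channel centred on its median, 11 rose and 5 fell (2.38% together, against 0.864% of all RNAs). Without siALKBH5#1 replicate 3 as well, 9 rose and 17 fell, which at 3.87% was less than the 7.67% of all RNAs. The deposited levels gave 4 that rose and 7 that fell (1.64% against 0.157%), and 2 and 30 without that array (4.76% against 1.89%). Without that array, 0 low-level transcripts reached a limma adjusted P under 0.05 with median centring or the deposited levels. Of all RNAs, 0% and 0.0101% did.

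With siALKBH5#3, 8 low-level transcripts (1.19%) rose in level and 3 (0.446%) fell, against 0.131% and 0.0152% of all RNAs. Here too the log2 level moves more at a low level, so these shares are not like for like. By limma none reached an adjusted P under 0.05, and 0% of all RNAs did. The fit with array weights differed, with 88 low-level transcripts (13.1%) and 6.22% of all RNAs under it. At an unadjusted P under 0.05 limma counted 50 low-level transcripts (7.44%) and 2.61% of all RNAs, while the methods' t-test counted 48 (7.14%) against 6.53%. All 8 that rose were higher on every siALKBH5#3 array than on every siControl array, with a median scaled level of 16.7% in siControl and 27.1% with the siRNA. Their median log2 change was 0.68 in IP and -0.25 in Sup. The 8 were chosen by the change between these arrays, so these values only describe them. The dimmest quartile by Sup signal held 7 of the 8, again without a comparison with dim probes among all RNAs. The median log2 change was 0.041 for the low-level transcripts and 0.062 for all RNAs. Relative to all RNAs, the arrays gave 0.084, -0.040 and -0.11, within the range of the siControl arrays. Centring on the median turned the balance to 2 that rose and 8 that fell (1.49% together, against 0.238% of all RNAs), and the deposited levels gave 0 and 5 (0.744% against 0.0455%). The count of 11 became 19 without siALKBH5#1 replicate 3 (2.83% against 0.298%), 5 without siALKBH5#3 replicate 1 (0.744% against 0.091%), and 3 (0.446%) without siControl replicate 1 or siALKBH5#3 replicate 3, against 0.0708% and 0.0303%. With only siALKBH5#3 and siControl in the model, 12 rose and 8 fell (2.98% together, against 0.298%). With the replicate block 10 rose and 7 fell (2.53% against 0.222%). The count moved with the processing too. It was 3 without background subtraction (0.446% against 0.0202%), 2 with normexp (0.298% against 0.0152%), 1 by the methods' t-test (0.149% against 0.0657%), 3 for log2(IP/Sup) (0.446% against 0.136%) and 0 without scaling (0% against 0.0101%). In the fit over all RNAs with Sup above background it was 3, which at 0.446% was less than the 0.69% of all RNAs. Both comparisons share the siControl arrays, and the difference between the siRNAs was not tested.

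**Figure D4:**
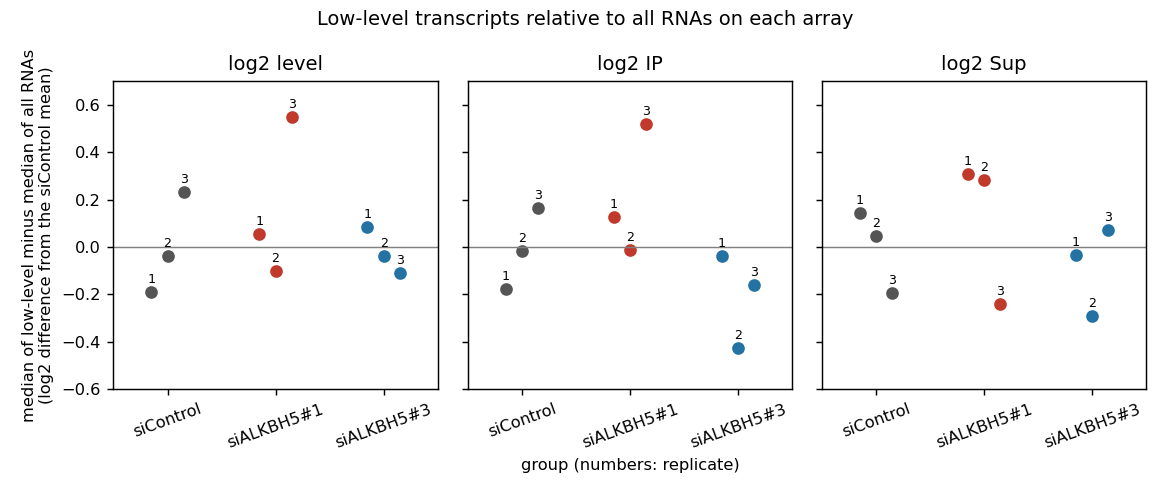
Median of the low-level transcripts minus the median of all RNAs on each array, as log2 differences from the siControl mean, for the level, the IP signal and the Sup signal (numbers give the replicate). siALKBH5#1 replicate 3 lies at 0.55 for the level, 0.52 for IP and -0.24 for Sup, away from the other siALKBH5#1 arrays in each panel.

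For the IP signal, 2 low-level transcripts (0.298%) rose and 0 fell with siALKBH5#1, against 0.167% and 0.101% of all RNAs, and 3 (0.446%) rose and 0 fell with siALKBH5#3, against 0.172% and 0.0708%. An adjusted limma P under 0.05 was reached by 0% of all RNAs with each siRNA. With array weights it was reached by 78.6% of the low-level transcripts with siALKBH5#1 (79.9% of all RNAs) and 21.1% with siALKBH5#3 (32.1%). At an unadjusted P under 0.05 limma counted 24 low-level transcripts (3.57%) with siALKBH5#1, against 2.30% of all RNAs, and 9 (1.34%) with siALKBH5#3, against 1.15%. The methods' t-test counted 42 (6.25%) against 3.57%, and 40 (5.95%) against 6.57%. All RNAs had a median log2 change in IP of 0.017 with siALKBH5#1 and 0.32 with siALKBH5#3, and of -0.15 and 0.16 without any scaling, so the low-level transcripts are given relative to it. Their median log2 change in IP was 0.26 above that of all RNAs with siALKBH5#1 and -0.21 from it with siALKBH5#3. The relative values of single arrays were 0.13, -0.013 and 0.52 with siALKBH5#1, -0.037, -0.43 and -0.16 with siALKBH5#3, and -0.18, -0.018 and 0.16 with siControl, so both groups overlapped with siControl. Each siALKBH5#1 value lay above the siControl value of the same replicate number, by little for replicate 2. The difference with siALKBH5#1 was 0.17 without siControl replicate 1 and 0.41 without siALKBH5#1 replicate 2. It shrank to 0.053 without siALKBH5#1 replicate 3. In that fit the median log2 change of all RNAs was 0.80, and 103 low-level transcripts (15.3%) rose and 0 fell, against 12.8% and 2.68% of all RNAs. A limma adjusted P under 0.05 was reached by 14 (2.08%), against 2.80% of all RNAs. With each array also centred on its median, 11 rose and 5 fell (2.38% together, against 10.8% of all RNAs). The relative median of -0.21 with siALKBH5#3 became -0.10 without siALKBH5#3 replicate 2. The count of 2 with siALKBH5#1 became 6 with the dye-normalized signal (0.893% against 0.379% of all RNAs) and 8 by the methods' t-test (1.19% against 0.652%). With array weights it was 470 (69.9% against 72.3%). The count became 1 with the replicate block (0.149% against 0.0809%). It was 0 without siALKBH5#1 replicate 1 or siControl replicate 2 (0%, against 0.0506% and 0.0354% of all RNAs). It was 1 without siALKBH5#1 replicate 2, siALKBH5#3 replicate 1 or siALKBH5#3 replicate 3 (0.149%, against 0.0657%, 0.0961% and 0.101% of all RNAs). The count of 3 with siALKBH5#3 became 12 without siALKBH5#1 replicate 3 (1.79%, against 2.81% of all RNAs). It became 1 without siControl replicate 2 or siALKBH5#3 replicate 1 (0.149%, against 0.116% and 0.0961%). It was 10 by the methods' t-test (1.49% against 1.19%) and with only siALKBH5#3 and siControl in the model (1.49% against 1.71%). With array weights it was 109 (16.2% against 27.1%).

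The Sup signal is the closest measure of abundance for transcripts that are mostly unbound. In Sup, 2 low-level transcripts (0.298%) rose and 0 fell with each siRNA. Of all RNAs, 0.217% rose and 0.101% fell with siALKBH5#1, and 0.48% rose and 0.126% fell with siALKBH5#3. By limma 0% of all RNAs reached an adjusted P under 0.05, with either siRNA. At an unadjusted P under 0.05 limma counted 12 low-level transcripts (1.79%) with siALKBH5#1 and 11 (1.64%) with siALKBH5#3, beside 1.53% and 2.39% of all RNAs, and the methods' t-test counted 17 (2.53%) and 30 (4.46%), beside 1.97% and 10.8% of all RNAs. With only siALKBH5#3 and siControl in the model, limma gave 9 low-level transcripts (1.34%) and 1.25% of all RNAs an adjusted P under 0.05 for Sup. Array weights gave it to 72.9% of the low-level transcripts with siALKBH5#1 (55.9% of all RNAs) and 25.9% with siALKBH5#3 (32.4%). The IP signal rose past the same threshold for 1 of the 2 with siALKBH5#1 and for both with siALKBH5#3, and the level passed for none of these. The median log2 change in Sup relative to all RNAs was 0.13 with siALKBH5#1 and -0.089 with siALKBH5#3, where all RNAs had moved by -0.045 and 0.18. With 1 array left out, the first ranged from 0.034, without siALKBH5#1 replicate 1, to 0.28, without siALKBH5#1 replicate 3. The second ranged from -0.17, without siControl replicate 3, to 0.020, without siALKBH5#3 replicate 2.

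Single arrays differed more in Sup than the medians show. The relative values were 0.31 and 0.28 on siALKBH5#1 replicates 1 and 2, both above the siControl values of 0.14, 0.045 and -0.19, but -0.24 on siALKBH5#1 replicate 3. With siALKBH5#3 they were -0.035, -0.29 and 0.072, overlapping with siControl. Without siALKBH5#1 replicate 3, 175 low-level transcripts (26.0%) rose in Sup with siALKBH5#1 and 0 fell, against 11.2% and 2.40% of all RNAs. An adjusted limma P under 0.05 was then reached by 119 low-level transcripts (17.7%) and 9.31% of all RNAs. This comparison has 2 siALKBH5#1 arrays, and the median log2 change in it was 0.40 for all RNAs and 0.69 for the low-level transcripts. With each array also centred on its median, which removes the common shift, 62 rose and 4 fell. These are 9.82% of the low-level transcripts, beside 9.47% of all RNAs past the threshold in either direction, and the median of the low-level transcripts lay 0.29 above that of all RNAs. In the centred fit 18 low-level transcripts (2.68%) reached a limma adjusted P under 0.05, less than the 3.28% of all RNAs. The count of 2 with siALKBH5#1 became 1 with the replicate block (0.149%, against 0.293% of all RNAs). It was 0 without siControl replicate 2, siControl replicate 3, siALKBH5#1 replicate 1, siALKBH5#1 replicate 2 or siALKBH5#3 replicate 1. For all RNAs these shares were 0.106%, 0.187%, 0.136%, 0.298% and 0.182%. The count was 1 without siALKBH5#3 replicate 2 or 3 (0.149%, against 0.197% and 0.182% of all RNAs). With the block and only siALKBH5#1 and siControl in the model, 1 rose and 2 fell (0.446% together, against 0.586% of all RNAs). In that fit 0 low-level transcripts and 0.0556% of all RNAs reached a limma adjusted P under 0.05. The count of 2 with siALKBH5#3 became 27 without siALKBH5#1 replicate 3 (4.02%, against 5.91% of all RNAs). In that fit 16 low-level transcripts (2.38%) and 2.29% of all RNAs reached a limma adjusted P under 0.05. With each array also centred on its median these were 20 (2.98%) and 2.51%. The count with siALKBH5#3 was 1 without siControl replicate 2, siALKBH5#3 replicate 1 or siALKBH5#3 replicate 3 (0.149%, against 0.172%, 0.243% and 0.207% of all RNAs).

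Of the low-level transcripts past the threshold, the largest rise in level was that of ASHG19AP1B10013100611. Its scaled level was 6.84%, 9.05% and 10% with siControl, 26.0%, 31.6% and 12.4% with siALKBH5#1, and 16.7%, 10.9% and 25.5% with siALKBH5#3, so that every siRNA array lay above every siControl array. In the deposited levels siALKBH5#3 replicate 2 (0.0998) lay under siControl replicate 3 (0.129). On the log2 scale the change in scaled level was 1.35 with siALKBH5#1 (limma adjusted P 0.968) and 0.97 with siALKBH5#3 (limma adjusted P 1.00), each with a standard error of 0.36, and only the first passed the threshold. Both passed without siALKBH5#1 replicate 3, at 1.75 with siALKBH5#1 (limma adjusted P 0.0268) and 0.97 with siALKBH5#3 (limma adjusted P 0.282). Over all alternatives the adjusted P ranged from 0.000956 to 1.00 for siALKBH5#1 and from 0.0143 to 1.00 for siALKBH5#3. The Sup intensity was 1216, 566 and 545 with siControl, 554, 257 and 501 with siALKBH5#1, and 430, 476 and 340 with siALKBH5#3. The IP intensity was low throughout, between 26.3 and 60.9. The call with siALKBH5#1 passed in 17 of 26 alternatives, of which the scan as a block and the fit without siALKBH5#1 replicate 1 are the same fit. Among the single arrays left out, it was lost without siControl replicate 1, siALKBH5#1 replicate 1 or siALKBH5#1 replicate 2, with log2 changes of 1.19, 1.22 and 1.08. It was also lost without background subtraction, where the log2 change shrank to 0.99 (unadjusted limma P 0.0108), and with normexp, at 0.83 (0.0104). The other losses were without scaling (log2 change 1.19), in the fit over all RNAs with Sup above background, and by the methods' t-test (unadjusted P 0.038), the last 2 at the log2 change of 1.35. With siALKBH5#3 the level also passed without siALKBH5#3 replicate 2, at 1.28. It passed as well with only siALKBH5#3 and siControl in the model, at 0.97 (limma adjusted P 0.357), and with array weights, at 0.77 (limma adjusted P 0.0143).

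ASHG19AP1B13533858511 had the largest fall in level among those past the threshold, and its siControl levels lay above 0.30. It was at 50.1%, 33.3% and 34.6% with siControl, 43.7%, 36.6% and 23.7% with siALKBH5#1, and 22.0%, 24.7% and 19.2% with siALKBH5#3. All siALKBH5#3 arrays lay under all siControl arrays, while siALKBH5#1 overlapped with siControl. On the log2 scale the level differed by -0.83 with siALKBH5#3 (limma adjusted P 1.00) and by -0.20 with siALKBH5#1, each with a standard error of 0.23. With siALKBH5#3 the log2 change was -0.72 in IP (standard error 0.93) and 0.48 in Sup (standard error 0.63). The adjusted limma P with siALKBH5#3 was 0.165 without siALKBH5#1 replicate 3, and over all alternatives it ranged from 0.00383, with array weights, to 1.00. This call passed in 18 of 25 alternatives. Among the single arrays left out, it was lost without siControl replicate 1, siALKBH5#3 replicate 1 or siALKBH5#3 replicate 3, with log2 changes of -0.64, -0.83 and -0.73. It was also lost without scaling, at -0.98, and for log2(IP/Sup), at -1.20. The other losses, both at -0.83, were in the fit over all RNAs with Sup above background and by the methods' t-test.

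ASHG19AP1A11067754711 had the largest rise in Sup among those past the threshold with either siRNA, since none passed with both. The Sup intensity was 2065, 2073 and 3000 with siControl, 2604, 1933 and 7904 with siALKBH5#1, and 12506 and 7101 on siALKBH5#3 replicates 1 and 3. The spot of siALKBH5#3 replicate 2 was marked as an outlier and left out. Sup was 2.17 log2 units higher with siALKBH5#3 (limma adjusted P 1.00, standard error 0.51), IP was 2.30 higher (limma adjusted P 1.00, standard error 0.61), and the log2 level differed by 0.084 (standard error 0.32). The adjusted limma P for Sup was under 0.05 in 4 of 22 alternatives. It was 0.000494 without siALKBH5#1 replicate 3, 0.00353 with median centring as well, 0.0056 with only siALKBH5#3 and siControl in the model, and 1.5e-16 with array weights. With siALKBH5#1 the log2 change in Sup was 0.35 (standard error 0.45). The rise rests on 2 siALKBH5#3 arrays. Leaving out replicate 1 or 3 leaves 1 array, which the fit assumes to vary like the other groups, and leaving out replicate 2 takes away no siALKBH5#3 value of this transcript. With the outlier-marked spot kept the difference was 2.01 (limma adjusted P 1.00) and passed the threshold. The call was lost without scaling, also at 2.01, and without siALKBH5#3 replicate 1, at 2.04. No low-level transcript fell past the threshold in Sup in the fit of all arrays and groups. With each channel centred on its median, 5 rose and 2 fell with siALKBH5#1 (1.04% together, against 1.65% of all RNAs), and 9 rose and 6 fell with siALKBH5#3 (2.23% against 2.58%). With only siALKBH5#3 and siControl in the model, 20 rose and 3 fell (3.42% against 5.0%), and without siALKBH5#1 replicate 3 the siALKBH5#3 comparison gave 23 and 4 (4.02% against 5.91%). The most that fell in any alternative were 4 with siALKBH5#1 and 21 with siALKBH5#3, with median centring and siALKBH5#1 replicate 3 left out, where 9.82% and 6.25% passed in either direction, against 9.47% and 6.76% of all RNAs.

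**Figure D5:**
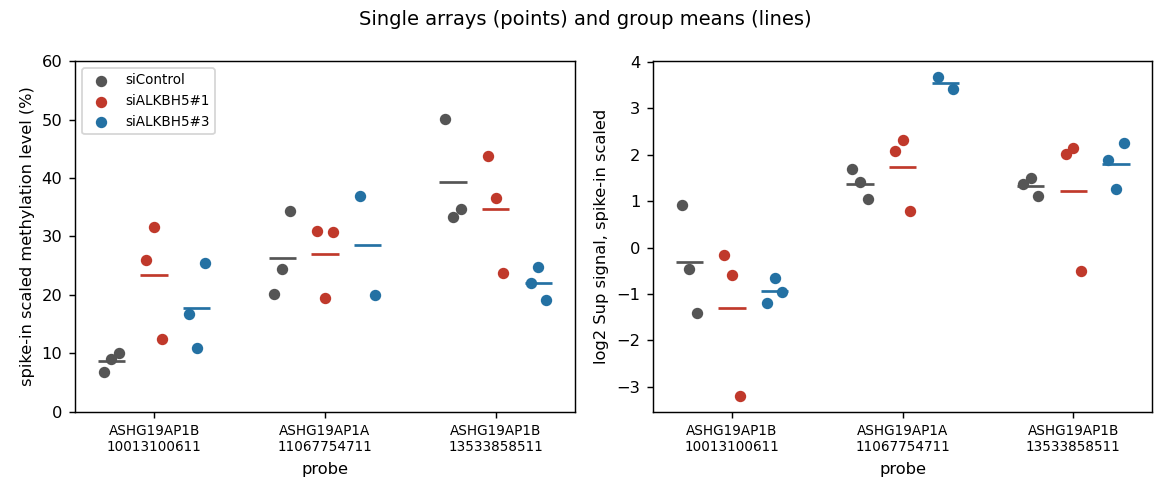
Spike-in scaled methylation level in percent and log2 Sup signal of the named low-level transcripts, with single arrays as points and group means as lines. The level of ASHG19AP1B10013100611 was between 10.9% and 31.6% on the siRNA arrays and at most 10% with siControl, and the Sup signal of ASHG19AP1A11067754711 was higher on both siALKBH5#3 arrays that measured it than on the other 6.

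By probe prefix, of the 71 ASHG19AP1A transcripts, 1 rose in level with siALKBH5#1 and 0 passed with siALKBH5#3, and of the 601 tested ASHG19AP1B transcripts, 12 rose and 1 fell with siALKBH5#1, and 8 rose and 3 fell with siALKBH5#3. Of all RNAs, 0.248% rose and 0.0202% fell with siALKBH5#1, and 0.131% rose and 0.0152% fell with siALKBH5#3. The prefixes were not tested against each other. The median log2 level change with siALKBH5#1 was 0.19 for ASHG19AP1A and 0.16 for ASHG19AP1B. The ASHG19AP1A transcripts were somewhat dimmer, with a median Sup intensity of 553 against 820. ITGB3BP, measured by 10 spots, had deposited levels of 0.269, 0.237 and 0.207 with siControl, 0.208, 0.190 and 0.221 with siALKBH5#1, and 0.228, 0.232 and 0.180 with siALKBH5#3. Unlike the median of the low-level transcripts, it lay on siALKBH5#1 replicate 3 within the range of the other arrays.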

How the data were processed

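The scanner output that the authors deposited for 9 arrays gives the intensity of every spot, raw, background-subtracted and dye-normalized. They also deposited the methylation level of each probe as a fraction. For every passing ASHG19AP1 probe the deposited fraction equalled IP/(IP + Sup) of the dye-normalized signals after adding 1 constant per array to log2(IP/Sup), within 3.1e-08. The column medians were 0.517, 0.521 and 0.517 for siControl, 0.479, 0.479 and 0.518 for siALKBH5#1, and 0.545, 0.523 and 0.482 for siALKBH5#3. The study's methods scale by the average log2 spike-in intensity. The spike-in averages computed here, from 13 or all 102 probes, departed from these constants by up to 0.27 or more on the log2 scale, so how they were set is not settled. Dyes were not swapped, so a dye effect and the fraction cannot be told apart in a level.

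For the tests, background-subtracted intensities were scaled in each array and channel to 13 spike-in probes, by subtracting the mean of their log2 values. These were the ones of 102 whose IP and Sup signals both passed the background mark throughout. Outlier-marked spots were dropped and spots of 1 probe averaged. The same mark was passed by 20020 RNAs, and the 19781 of them with 2 or more values per group were fitted with limma 3.58.1 in R 4.3.3 in a model of the 3 groups. A call needs a fold change over 1.5 and an unadjusted P under 0.01, as in the study's methods, and Benjamini-Hochberg adjusted P values cover all 19781 RNAs. The number of arrays limits the precision. The script was tested on simulated data. Named transcripts were, in each direction, the 1 with the largest level change past the threshold with either siRNA and the 1 with the largest mean Sup change past it with both, or otherwise with either. Gene lists and cell type markers were not analysed, since no probe of the set has a gene name here.

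Deviations from the group means in log2 level correlated between siALKBH5#1 and siControl arrays of the same replicate number (0.602, 0.243 and 0.778). The labels do not state a pairing, and correlations between different numbers are not given. The deviations within a group cancel out, so these values are not independent, and a pairing is not established. The transcripts and the rules were chosen with earlier results of these data known.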

Additional observations from a re-analysis of the deposited data

How the results depend on the processing

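Values are counts of low-level transcripts past the threshold, first with siALKBH5#1 and then with siALKBH5#3. As reported they were 14 and 11 for the level, 2 and 3 for IP, and 2 and 2 for Sup. Where a count moved, the cause was not tested. For the same change in IP/Sup the log2 level moves more at a low level. The shares for the level are therefore not like for like with those of all RNAs. Without background subtraction they were 4 and 3 (level), 1 and 3 (IP), 2 and 2 (Sup). These are 0.595% and 0.446%, 0.149% and 0.446%, 0.298% and 0.298%. For all RNAs the shares were 0.0708% and 0.0202%, 0.126% and 0.207%, 0.273% and 0.511%. With normexp the counts were 3 and 2, 1 and 3, 1 and 3. These are 0.446% and 0.298%, 0.149% and 0.446%, 0.149% and 0.446%. For all RNAs the shares were 0.091% and 0.0152%, 0.0556% and 0.152%, 0.187% and 0.409%. The dye-normalized signal gave 21 and 10, 6 and 3, 1 and 2. These are 3.1% and 1.49%, 0.893% and 0.446%, 0.149% and 0.298%. For all RNAs the shares were 0.172% and 0.0708%, 0.379% and 0.293%, 0.182% and 0.45%, so those for Sup were higher. Centring on the median gave 16 and 10, 4 and 5, 7 and 15, where the shares for IP (0.595% and 0.744%) and Sup (1.04% and 2.23%) were under those of all RNAs (0.859% and 1.05%, 1.65% and 2.58%). Without scaling the counts were 1 and 0, 0 and 0, 0 and 6. These are 0.149% and 0%, 0% and 0%, 0% and 0.893%. For all RNAs the shares were 0.0202% and 0.0101%, 0.0607% and 0.0657%, 0.263% and 0.268%. Of the 6 for Sup, 3 rose and 3 fell. The deposited levels gave 11 and 5, and log2(IP/Sup) gave 7 and 3. A fit over all RNAs with Sup above background gave 9 and 3, 0 and 1, 0 and 2. These are 1.34% and 0.446% for the level, 0% and 0.149% for IP and 0% and 0.298% for Sup, beside 1.03% and 0.69%, 0.312% and 0.255%, and 0.117% and 0.291% of all RNAs. With outlier-marked spots kept the counts were 11 and 10, 1 and 4, 0 and 2. These are 1.63% and 1.48%, 0.148% and 0.592%, 0% and 0.296%. For all RNAs the shares were 0.22% and 0.13%, 0.21% and 0.215%, 0.24% and 0.564%.

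With the replicate block they were 17 and 17, 1 and 3, 1 and 4. These are 2.53% and 2.53%, 0.149% and 0.446%, 0.149% and 0.595%. For all RNAs the shares were 0.354% and 0.222%, 0.0809% and 0.136%, 0.293% and 0.531%. For siALKBH5#3 and siControl arrays of the same number, the deviations from the group means correlated between -0.316 and -0.287. With only the 2 groups compared in the model they were 12 and 20, 0 and 10, 0 and 23. These are 1.79% and 2.98% for the level, 0% and 1.49% for IP and 0% and 3.42% for Sup, beside 0.182% and 0.298%, 0.0202% and 1.71%, and 0.0961% and 5.0% of all RNAs. The scan as a block gave 17 and 13, 0 and 3, 0 and 3. These are 2.53% and 1.93%, 0% and 0.446%, 0% and 0.446%. For all RNAs the shares were 0.349% and 0.172%, 0.0506% and 0.187%, 0.136% and 0.49%. The scan block is the fit without siALKBH5#1 replicate 1, the array scanned apart, and no separate alternative. Array weights gave 44 and 15, 470 and 109, 357 and 66, beside 2.89% and 0.248%, 72.3% and 27.1%, 35.5% and 16.3% of all RNAs, where the low-level shares were 6.55% and 2.23%, 69.9% and 16.2%, 53.1% and 9.82%. The methods' t-test gave 3 and 1, 8 and 10, 1 and 7, where the share for Sup (0.149% and 1.04%) was under that of all RNAs (0.374% and 2.84%). In the fit as reported, a limma adjusted P under 0.05 gave 0 low-level transcripts for every measure. Array weights gave it to 24.1% and 13.1% (level), 78.6% and 21.1% (IP), 72.9% and 25.9% (Sup). For all RNAs these shares were 28.0016% and 6.22%, 79.9% and 32.1%, 55.9% and 32.4%. Some fits of fewer arrays or groups also gave low-level transcripts under it. A limit of 0.25 gave 9 and 6, 2 and 0, 2 and 0, and a limit of 0.35 gave 27 and 15, 5 and 5, 6 and 7, over fewer (259) and more (1538) transcripts. At 0.25 the shares were 3.47% and 2.32%, 0.772% and 0%, 0.772% and 0%. At 0.35 they were 1.76% and 0.975%, 0.325% and 0.325%, 0.39% and 0.455%. For all RNAs they were 0.268% and 0.147%, 0.268% and 0.243%, 0.318% and 0.607%. Membership by the scaled level kept every count within 1.5 times.

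With 1 array left out in turn, the counts ranged from 11 to 41 and from 3 to 19 for the level, from 0 to 103 and from 1 to 12 for IP, and from 0 to 175 and from 1 to 27 for Sup. The highest value was without siALKBH5#1 replicate 3 in each case. These highest counts are 6.10% and 2.83% for the level, 15.3% and 1.79% for IP, and 26.0% and 4.02% for Sup. For all RNAs the shares were 3.62% and 0.298%, 15.4% and 2.81%, and 13.5% and 5.91%, so both for IP and the second for Sup were higher. The 11 for the level are 1.64%, against 0.258% of all RNAs without siControl replicate 1 and 0.212% without siALKBH5#3 replicate 1. The fit takes its spread from all groups, so a group left with 2 arrays, or with 1 where a transcript lacks a value, is assumed to vary like the others.

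Among alternatives chosen after seeing the data, the replicate block in a model of siALKBH5#1 and siControl alone gave 35 for the level, 0 for IP and 3 for Sup with siALKBH5#1. These are 5.21%, 0% and 0.446%, beside 0.602%, 0.207% and 0.586% of all RNAs. Of the 3 for Sup, 1 rose and 2 fell. Median centring without siALKBH5#1 replicate 3 gave 26 and 27, 16 and 33, 66 and 42. These are 3.87% and 4.02% for the level, 2.38% and 4.91% for IP and 9.82% and 6.25% for Sup, beside 7.67% and 0.526%, 10.8% and 4.4%, and 9.47% and 6.76% of all RNAs. The deposited levels without that array gave 32 and 9 (4.76% and 1.34%, beside 1.89% and 0.0809% of all RNAs). Membership by the mean over the other 8 arrays changed the counts by no more than 1.5 times.

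The median level of the low-level transcripts, 25.9%, was 14.8% with median centring, 15.5% without scaling, 30.01% with normexp and 27.7% without background subtraction, so its absolute value depends on the scaling. With 1 array left out it was between 25.4% and 26.2%. Every low-level transcript passed the background mark in IP and Sup on each array.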
